A study of Mus musculus with 16 samples.

Results

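The comparison described here is that of newborn retina, at postnatal day 1 (P1), between mice labelled Uxt CKO (conditional knockout) and controls. It was selected by the labels of age and genotype and takes 4 of the 16 RNA-seq samples of the series, 2 controls and 2 CKO, and all genes with enough counts to test, 21115 of the 54532 gene identifiers in the files. The strain is C57BL/6 in every group. In the CKO, a Chx10-Cre driver, active in retinal progenitor cells, was crossed to a Uxt allele whose exon 3 lies between loxP sites placed by CRISPR/Cas9. The labels call the other group control and do not give its Cre or flox alleles. Cells that do not arise from retinal progenitors, such as microglia, vessels and muscle, are outside the reach of this driver. The remaining samples, CKO and control at P7, P14 and P30, entered the fit that estimates the spread, and those of P7 also served a comparison between ages.

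UXT is a small protein of the prefoldin family. It belongs to a prefoldin-like module that works with the R2TP chaperone complex, which helps to assemble RNA polymerase II, small nuclear and nucleolar ribonucleoproteins and the large kinases of the ATM, ATR and mTOR family. In the mouse retina the first days after birth are the peak of rod birth: progenitors still divide, pass through a short neurogenic stage driven by proneural factors and restrained by Notch signalling, and become rods, bipolar cells, late amacrine cells and Müller glia. Young photoreceptors at this age express their transcription factors well before the proteins of the light response.

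Levels are given as TMM-scaled CPM, reads relative to the total of the library,, library by library; where 2 pairs of values are joined by "against", the controls come first. Differences are log2 fold changes of CKO over control (2 libraries in each group). They are written ± an SE, the absolute log2 fold change divided by the square root of the test's F statistic. This SE rests on the spread over all 16 libraries and not on the 2 libraries of a group alone. Testing used edgeR's quasi-likelihood test and Benjamini-Hochberg adjustment over all 21115 genes. A gene is said to have risen or fallen only where the adjusted p was under 0.05. Total counts ran from 16202580 to 19555104 per P1 library, with 26993 to 27841 genes detected, so that 3 counts corresponded to 0.142 to 0.173 CPM. Nothing in the labels tells whether the 2 libraries of a group came from different animals, and p-values then cover the spread between these samples only, which may be technical. Counts of the replicates differed beyond sampling noise in both groups. The chi-square over its degrees of freedom, summed over genes, was 1.55 for the controls and 1.5 for the CKO. This value does not show whether the libraries were prepared separately. Because whole tissue was sequenced, fewer cells of a type and less RNA per cell cannot be told apart.

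Uxt itself (ENSMUSG00000001134, chromosome X, minus strand, mm10) was low in all 4 libraries. It stood at 6.76 and 8.04 CPM in the controls and 4.82 and 3.57 CPM in the CKO libraries. Both CKO libraries lay below both controls, and the fall was -0.81 ± 0.19, adjusted p = 0.00728. These levels rest on 143 and 156 reads in the controls and 89 and 62 reads in the CKO libraries. Leaving out control replicate 2 ended the call (-0.69, adjusted p = 0.0878), as did leaving out CKO replicate 2 (-0.63, adjusted p = 0.117). A long noncoding gene on the opposite strand, A230072C01Rik, overlaps Uxt, and the strand setting of the counting is not given in the sources used here, so reads of either gene cannot be told apart where they overlap. The counts are per gene, so a transcript without exon 3 would still be counted as Uxt.

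Of 16 tested genes of the prefoldin-like module and R2TP, among them Uri1, Pdrg1, Ruvbl1 and Ruvbl2, none rose and 1 fell, Pih1d1, an adaptor of R2TP (-0.26 ± 0.08, adjusted p = 0.0417), whose call did not hold when any of the 4 P1 libraries was left out. Ruvbl2, one of the paired ATPases of R2TP and the one with the most CPM of these genes, was at 73.3 and 80.0 CPM in the controls and 70.8 and 70.7 CPM in the CKO libraries. Uri1, which binds UXT directly, stood at 63.5 and 64.2 against 66.2 and 63.2 CPM. The share called in this list was 6.25%, beside 12.7% of all genes. The canonical prefoldin and CCT chaperonin genes gave 0 calls of 16 by edgeR, and the box C/D and snRNP assembly genes 0 of 17. In each of these 2 lists 1 gene had an unadjusted p under 0.05, and DESeq2 called 0. With the 4 P1 libraries alone, 6 prefoldin and CCT genes rose and 1 fell, and 2 box C/D and snRNP genes fell (3 without the P30 libraries).

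Retinal markers were present in all 4 libraries, among them Pax6 of progenitors and inner neurons, Crx of photoreceptors and Tfap2b of amacrine cells, whose values follow. Sex ran with the group. Xist, the RNA of the inactive X, stood at 0.331 and 1.91 CPM in the controls and 1458 and 1449 CPM in the CKO libraries, whereas the Y-linked Ddx3y had 77 and 75.9 against 0 and 0 CPM. The controls are therefore male-like and the CKO libraries female-like in their RNA, and at P1 sex and genotype cannot be told apart. On the X chromosome 14% of 678 tested genes were called, against 12.6% of 20381 on the autosomes, and the median log2 fold change was 0.01 and -0.01. Eif2s3x, Kdm6a and Kdm5c, which escape X inactivation, rose by 0.49, 0.47 and 0.28.

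Markers of tissues beside the retina were present and also moved. Over all tested genes 6.11% rose and 6.57% fell. Both CKO libraries lay on one side of both controls, in either direction, for 59.6% of all genes. Muscle genes summed to 2779 and 2849 CPM in the controls and 5522 and 5499.5 CPM in the CKO libraries, and the 11 tested members all lay higher in both CKO libraries than in both controls, 6 of them called (median 0.94) and 3 when any P1 library was left out. Lens genes summed to 34428 and 34663 CPM in the controls and 37255 and 36549 CPM in the CKO libraries, with 0 of 15 called by edgeR or DESeq2 and 0 at an unadjusted p under 0.05, but 7 rose and 1 fell without the P30 libraries. Red cell genes summed to 630.1 and 617 CPM in the controls and 1937 and 1698 CPM in the CKO libraries, with 5 of 8 risen. Connective tissue genes summed to 9157 and 9108 CPM in the controls and 11498 and 11386 CPM in the CKO libraries, with 4 of 12 risen and 0 when any P1 library was left out. Genes of pigment epithelium and melanocytes, among them Pmel, were present, and 2 of 12 rose. They summed to 1062 and 1059 CPM in the controls and 1281 and 1269 CPM in the CKO libraries. Within this list Rpe65 and Lrat, which define mature pigment epithelium, were under 1 CPM in every library. The part of these tissues in the results below was not tested.

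Across the genome 2677 genes, 12.7% of those tested, passed the threshold. Of these, 1290 (6.11%) rose and 1387 (6.57%) fell, and 329 (1.56%) changed at least 2-fold. The median log2 fold change over all genes was -0.01. Both CKO libraries lay on one side of both controls for 59.6% of genes, so that lack of overlap is common and is not a call. The split of calls depends on scaling: with libraries scaled on 20 pan-neuronal genes, which raises the median of all genes by 0.09, 1228 genes were called and 72.1% of them rose, against 48.2% here. The number of calls depends on the fit: 6098 with the 4 P1 libraries alone, 5877 without the P30 libraries, and 1159 to 1276 when any 1 P1 library was left out. Of the 720 tested members of the gene lists used below, 234 were called, and 116 of those calls held in every alternative in which the gene was tested.

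**Figure D1:**
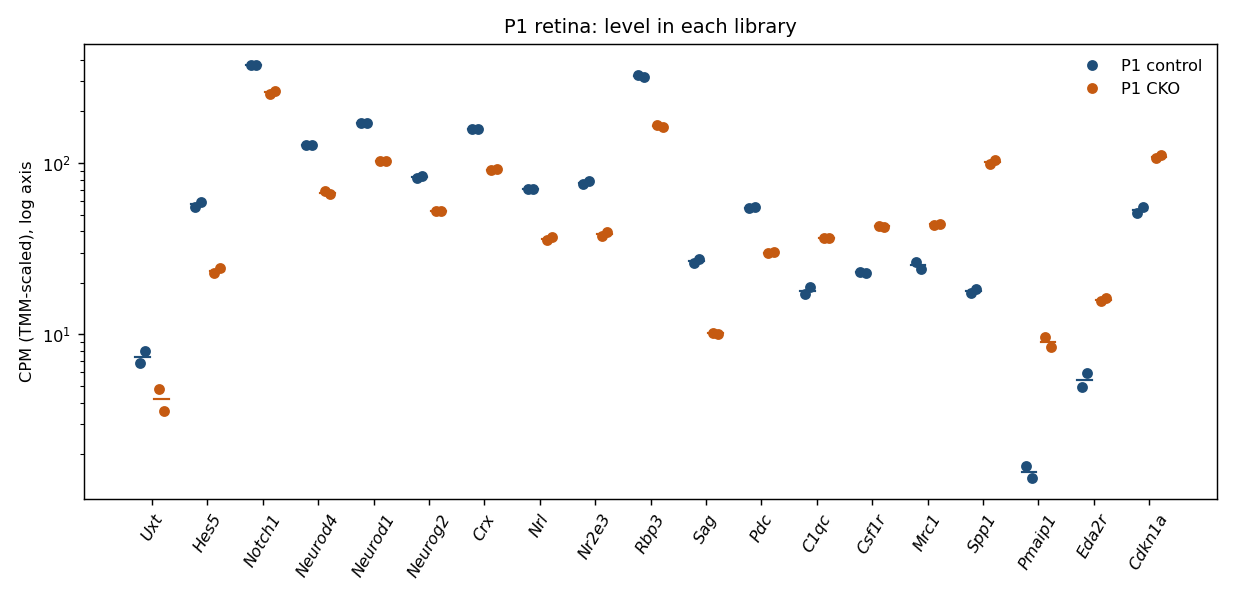
Level of 19 genes in each of the 4 P1 libraries, as TMM-scaled CPM on a log axis. Points are libraries, bars the group means; control is blue and CKO orange. In none of the 19 genes did the 2 groups overlap: Uxt and the genes from Hes5 to Pdc were lower in both CKO libraries, C1qc to Cdkn1a higher. The 2 groups did not overlap for 59.6% of all tested genes.

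Genes of neurogenic precursors, the cells leaving the cycle on their way to a neuronal fate, were lower as a group. Of 20 tested members 16 fell and none rose, against a background of 6.57% of genes falling, and the median was -0.57 against -0.01 over all genes. With pan-neuronal scaling 10 fell, and between 11 and 12 fell when 1 P1 library was left out. All 20 lay lower in both CKO libraries than in both controls. The groups were apart, in either direction, for 59.6% of all genes. Neurod4, a proneural factor of bipolar and photoreceptor precursors, was at 127 and 127 CPM in the controls and 68.2 and 65.6 CPM in the CKO libraries. Its libraries within a group were almost equal, and the groups were far apart (-0.92 ± 0.06, adjusted p = 5.19e-09). Neurod1, needed by young photoreceptors and amacrine cells, was at 172 and 172 against 103 and 103 CPM (-0.74 ± 0.08, adjusted p = 8.49e-06). Prdm1, which holds precursors to the photoreceptor rather than the bipolar fate, was at 114 and 111 against 67.3 and 70.3 CPM (-0.71 ± 0.08, adjusted p = 2.13e-05). Each fell by far more than its replicates differed.

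Neurog2, a proneural factor of cycling neurogenic progenitors, fell by a similar amount, at 82 and 84 against 52.8 and 52.5 CPM (-0.66 ± 0.08, adjusted p = 2.98e-05). Hes6, a Hes family member that promotes neuronal differentiation, was the most abundant of the group, at 297 and 296 against 205 and 205 CPM (-0.54 ± 0.07, adjusted p = 6.02e-05). Insm1, a zinc finger factor of newborn neurons, was at 112 and 109 against 84.1 and 84.8 CPM (-0.39 ± 0.05, adjusted p = 9.75e-05), a call that pan-neuronal scaling ended. The Notch ligands Dll1 and Dll3, carried by precursors, fell from 78.4 ± 2.35 to 57.6 ± 0.0812 CPM and from 42.7 ± 0.461 to 25.9 ± 1.06 CPM (SD, n = 2), and the call of Dll1 was lost with pan-neuronal scaling. Olig2, Atoh7 and Otx2 also fell, by 0.74, 0.62 and 0.62 on the log2 scale; the call of Otx2 was lost without any 1 of the P1 libraries and that of Atoh7 without control replicate 1 or CKO replicate 2. Members not called were Btg2, an antiproliferative gene (130.3 and 128 against 104 and 99.4 CPM), Dll4 (38.2 and 37 against 33 and 33.4 CPM), Gadd45g (30.6 and 29.7 against 29.3 and 24.9 CPM) and Hey1, a Notch target.

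Among genes of the progenitors themselves, the Notch receptor Notch1 and the Notch target Hes5 were also lower. Over all genes 6.57% fell and 6.11% rose. In the retinal progenitor list 7 of 17 fell and 1 rose (median -0.29); 3 fell with pan-neuronal scaling and 3 or 4 when a P1 library was left out. Without the P30 libraries, or with the 4 P1 libraries alone, 12 of 17 fell and 2 rose. Hes5, a direct target of Notch, was at 55.5 and 59.5 CPM in the controls and 22.9 and 24.2 CPM in the CKO libraries. Both CKO libraries lay far below both controls (-1.29 ± 0.10, adjusted p = 1.8e-07). Notch1, the receptor, was at 375 and 373 against 253 and 264 CPM (-0.53 ± 0.05, adjusted p = 6.4e-07). Sox9, a factor of late progenitors and Müller glia, was at 66.3 and 65.3 against 45.8 and 49.7 CPM (-0.46 ± 0.06, adjusted p = 8.25e-05). These 3 falls held in every alternative.

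Other progenitor factors moved less. Pax6 fell from 596 ± 5.14 to 519 ± 9.78 CPM (-0.20 ± 0.04), Lhx2 by 0.33 and Ccnd1, the cyclin of retinal progenitors, by 0.29; all 3 calls were lost with pan-neuronal scaling, that of Pax6 also without CKO replicate 2 and those of Lhx2 and Ccnd1 without any 1 of the P1 libraries. Zic1 rose (0.33 ± 0.08, adjusted p = 0.00825), a call lost when any P1 library was left out. Six3 was at 249 and 256 against 229 and 227 CPM and Fgf15 at 135 and 126 against 127 and 121 CPM, neither called. Hes1, another Notch target, had a difference of -0.07 ± 0.10, adjusted p = 0.742.

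The Hes5 promoter is printed because Hes5 is the Notch target with the largest fall. The RBPJ motif GTGGGAA, on either strand, was searched in the 250 bases before the start in the RefSeq promoter table (GRCm38.p6); 5.42% of 32851 promoters hold it. The Hes5 window, chr4:154960673-154960922 (plus strand), holds 2, with first bases 226 and 83 bases before the start, in capitals.
Hes5: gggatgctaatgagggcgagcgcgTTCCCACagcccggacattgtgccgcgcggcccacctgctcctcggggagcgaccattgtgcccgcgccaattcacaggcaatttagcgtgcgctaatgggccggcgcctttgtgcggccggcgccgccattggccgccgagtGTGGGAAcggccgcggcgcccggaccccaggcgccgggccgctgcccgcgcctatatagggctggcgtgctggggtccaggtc
None of the 21 promoters of the 15 neurogenic precursor genes in the table holds these letters, which says nothing of the factor.

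Of 20 S phase genes 5 fell and none rose (median -0.14), and of 20 G2 and mitosis genes 2 fell (median -0.28), against 6.57% of all genes falling; the G2 and mitosis share, 10%, is near that background. Mcm7, of the replicative helicase, was at 175 and 173 CPM in the controls and 135 and 132 CPM in the CKO libraries (-0.38 ± 0.06, adjusted p = 0.000196). E2f1, the S phase transcription factor, was at 99.8 and 103 against 77 and 76.1 CPM (-0.41 ± 0.07, adjusted p = 0.000638), and Bub1b, of the spindle checkpoint, at 103 and 103 against 78.5 and 78.8 CPM (-0.38 ± 0.08, adjusted p = 0.00396). Mki67 was lower in both CKO libraries, at 494 and 469 against 343 and 348 CPM, and missed the threshold (-0.48 ± 0.23, adjusted p = 0.251). The G2 and mitosis count rests on the fit: without the P30 libraries 17 of 20 fell and 11 of 20 S phase genes did. When a P1 library was left out, 3 or 4 S phase genes and 1 G2 and mitosis gene fell. With pan-neuronal scaling, 0 of either list fell.

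Photoreceptor genes were also lower. Among genes shared by rods and cones 13 of 20 fell and none rose, against 6.57% of all genes falling. The median was -0.59, and 11 fell under pan-neuronal scaling. Crx, the homeobox factor that drives most photoreceptor genes, was at 158 and 159 CPM in the controls and 91.3 and 91.8 CPM in the CKO libraries. Its replicates differed by under 1 CPM, and the fall was -0.79 ± 0.04, adjusted p = 5.77e-10. Rbp3, the retinoid-binding protein secreted by photoreceptors and the most abundant of the list, was at 324 and 316 against 166 and 162 CPM (-0.96 ± 0.05, adjusted p = 2.51e-10). Pdc, phosducin, was at 54.9 and 55 against 29.7 and 30.2 CPM (-0.87 ± 0.07, adjusted p = 2.45e-07).

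Other called members of that list included genes of the outer segment and of transport. Prph2, which shapes the disc rim, was at 27.5 and 24.7 against 15.9 and 16 CPM (-0.71 ± 0.06, adjusted p = 5.32e-07). Tulp1, a protein of photoreceptor transport and synapse, was at 94.1 and 99.5 against 55.1 and 55.9 CPM (-0.80 ± 0.07, adjusted p = 1.54e-06). Unc119, a carrier of lipidated proteins, was at 74.1 and 75.4 against 53.6 and 54.6 CPM (-0.47 ± 0.05, adjusted p = 2.53e-06). Aipl1, Rp1l1, Gucy2e and Rpgrip1 fell by 0.59, 0.56, 0.85 and 0.89, and these calls held in every alternative. The call of Impg2 (-0.80 ± 0.16, adjusted p = 0.0108) was lost without 3 of the P1 libraries in turn, and that of Rcvrn (-0.60 ± 0.17, adjusted p = 0.0408), at under 4 CPM, in 9 alternatives. Of the 7 members that did not pass, Neurod2 was at 3.03 and 3.71 against 2.71 and 1.84 CPM, Rdh12 at 2.22 and 2.32 against 1.73 and 2.07 CPM and Isl2 at 13.3 and 16.3 against 15 and 16.3 CPM.

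Of 20 rod genes 9 fell and 2 rose, beside 6.57% of all genes falling and 6.11% rising. The median was -0.44, and 8 fell and 1 rose under pan-neuronal scaling. Nrl, the leucine zipper factor that sets the rod fate, was at 70.7 and 70.6 CPM in the controls and 35.6 and 37 CPM in the CKO libraries (-0.96 ± 0.07, adjusted p = 2.89e-08). Nr2e3, the nuclear receptor that acts with Nrl, was at 75.5 and 78.2 against 37.6 and 39.7 CPM (-0.99 ± 0.05, adjusted p = 5.77e-10). Both fell by nearly the same amount. Sag, the rod arrestin, had the largest fall of the 20 rod genes, at 26.1 and 27.6 against 10.2 and 10.1 CPM (-1.4 ± 0.09, adjusted p = 4.34e-09).

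Among early structural and enzyme genes, Pde6b was at 9.93 and 10.2 against 4.76 and 4.09 CPM (-1.18 ± 0.10, adjusted p = 4.1e-07), Rom1 at 29.7 and 33.7 against 19.6 and 19.6 CPM (-0.69 ± 0.06, adjusted p = 1.05e-06) and Rp1, a protein of the axoneme, at 24 and 22.7 against 12.2 and 14.2 CPM (-0.83 ± 0.09, adjusted p = 5.81e-06). Samd7, a Polycomb-associated protein of rods, fell from 26.9 ± 1.6 to 12.9 ± 0.0128 CPM (-1.06 ± 0.15, adjusted p = 0.000823). Gnat1, the alpha subunit of the rod transducin, was at under 3 CPM in all 4 libraries. The 2 rises were Mef2c, at 44.3 and 44.7 against 85.1 and 90.6 CPM (0.98 ± 0.17, adjusted p = 0.00448), and Esrrb (0.52 ± 0.15, adjusted p = 0.0244). Mef2c is also a muscle and microglial gene, and the markers of those tissues rose in the same libraries. The part of those tissues in the rise of Mef2c was not tested. The call of Esrrb was lost without any 1 of the P1 libraries. Gnb1, shared with other neurons, was at 408 and 413 against 396 and 398 CPM and not called.

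Of 16 cone genes 6 fell and none rose, against 6.57% of all genes falling. The median was -0.52, and 3 fell under pan-neuronal scaling. Ccdc136 was at 254 and 244 CPM in the controls and 157 and 154 CPM in the CKO libraries (-0.68 ± 0.06, adjusted p = 3.73e-07). Gnb3 and Gngt2, the beta and gamma subunits of the cone transducin, were at 117 and 116 against 69.5 and 66.1 CPM (-0.78 ± 0.09, adjusted p = 2.98e-05) and 62.6 and 63.8 against 36.9 and 37.5 CPM (-0.77 ± 0.10, adjusted p = 6.48e-05). Gnat2, the alpha subunit, fell by 0.57, a call lost with pan-neuronal scaling. Opn1sw, the short-wave cone pigment, was at 79 and 78.4 against 33.6 and 33.5 CPM, lower by more than its replicates differed, yet not called (-1.23 ± 0.55, adjusted p = 0.206). It was called with the 4 P1 libraries alone (adjusted p = 2.75e-112) and without the P30 libraries (adjusted p = 4.79e-51), and in no other alternative. The cone regulators Thrb (32.1 and 32.1 against 30.0 and 31.1 CPM) and Rxrg (0.12 ± 0.15) were not called, nor was Pde6c (19.3 and 19.5 against 18 and 18 CPM).

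Promoters were searched for the CRX motif TAATCC on either strand, in the same 250 bases before the start. The motif is in 6.25% of all 32851 promoters, in 8 of 19 promoters (16 genes) of the genes shared by rods and cones (42.1%, exact binomial 95% interval 20.3 to 66.5%), in 5 of 16 of the rod list (13 genes; 31.2%, 11 to 58.7%) and in 3 of 18 of the cone list (11 genes; 16.7%, 3.58 to 41.4%). These intervals cover counting error only. The shares rest on counting both strands: on the given strand alone the motif is in 3.03% of all promoters, 5.26% of the shared list, 12.5% of the rod list and 0 of 18 of the cone list. By call, on either strand 7 of 11 genes that fell and 1 of 5 not called hold it in the shared list, and 3 of 7 and 2 of 4 in the rod list; Nrl, Nr2e3, Pdc and Prph2 fell and do not hold it in this window. The lists are of photoreceptor genes whichever way they moved, so these shares describe the lists. The 5 promoters below belong to genes that fell and hold the motif, chosen after their values were seen; matches on either strand are in capitals. Crx is at chr7:15879956-15880205 (minus strand), Rbp3 at chr14:33953753-33954002, Rpgrip1 at chr14:52110653-52110902, Sag at chr1:87803430-87803679 and Samd7 at chr3:30746043-30746292 (all plus strand, GRCm38.p6).
Crx: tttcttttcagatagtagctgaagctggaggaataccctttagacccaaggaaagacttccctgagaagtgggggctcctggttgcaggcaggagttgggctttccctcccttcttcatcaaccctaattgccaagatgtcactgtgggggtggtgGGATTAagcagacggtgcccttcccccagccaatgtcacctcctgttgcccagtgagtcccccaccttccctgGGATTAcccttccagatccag
Rbp3: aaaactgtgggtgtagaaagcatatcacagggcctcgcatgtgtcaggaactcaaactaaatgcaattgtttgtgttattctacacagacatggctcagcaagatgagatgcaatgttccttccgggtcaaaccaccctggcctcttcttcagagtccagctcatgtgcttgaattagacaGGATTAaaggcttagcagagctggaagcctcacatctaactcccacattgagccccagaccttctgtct
Rpgrip1: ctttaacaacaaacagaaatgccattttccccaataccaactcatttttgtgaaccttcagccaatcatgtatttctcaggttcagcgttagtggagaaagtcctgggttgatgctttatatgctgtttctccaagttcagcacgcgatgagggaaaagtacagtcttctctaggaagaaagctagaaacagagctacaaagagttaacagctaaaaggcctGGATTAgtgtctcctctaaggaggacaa
Sag: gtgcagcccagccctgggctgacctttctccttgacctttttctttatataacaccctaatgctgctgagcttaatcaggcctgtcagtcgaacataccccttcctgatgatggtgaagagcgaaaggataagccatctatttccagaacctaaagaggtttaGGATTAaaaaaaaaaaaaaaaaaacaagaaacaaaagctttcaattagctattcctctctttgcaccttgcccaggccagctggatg
Samd7: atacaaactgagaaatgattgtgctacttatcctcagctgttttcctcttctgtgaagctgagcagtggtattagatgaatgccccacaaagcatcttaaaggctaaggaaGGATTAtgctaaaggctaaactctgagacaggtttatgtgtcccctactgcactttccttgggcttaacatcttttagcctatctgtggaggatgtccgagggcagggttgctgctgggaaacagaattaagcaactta
Crx has 2 matches, whose first bases lie 94 and 21 bases before its start. The single matches of Rbp3, Rpgrip1, Sag and Samd7 begin 69, 28, 87 and 139 bases before the start.

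**Figure D2:**
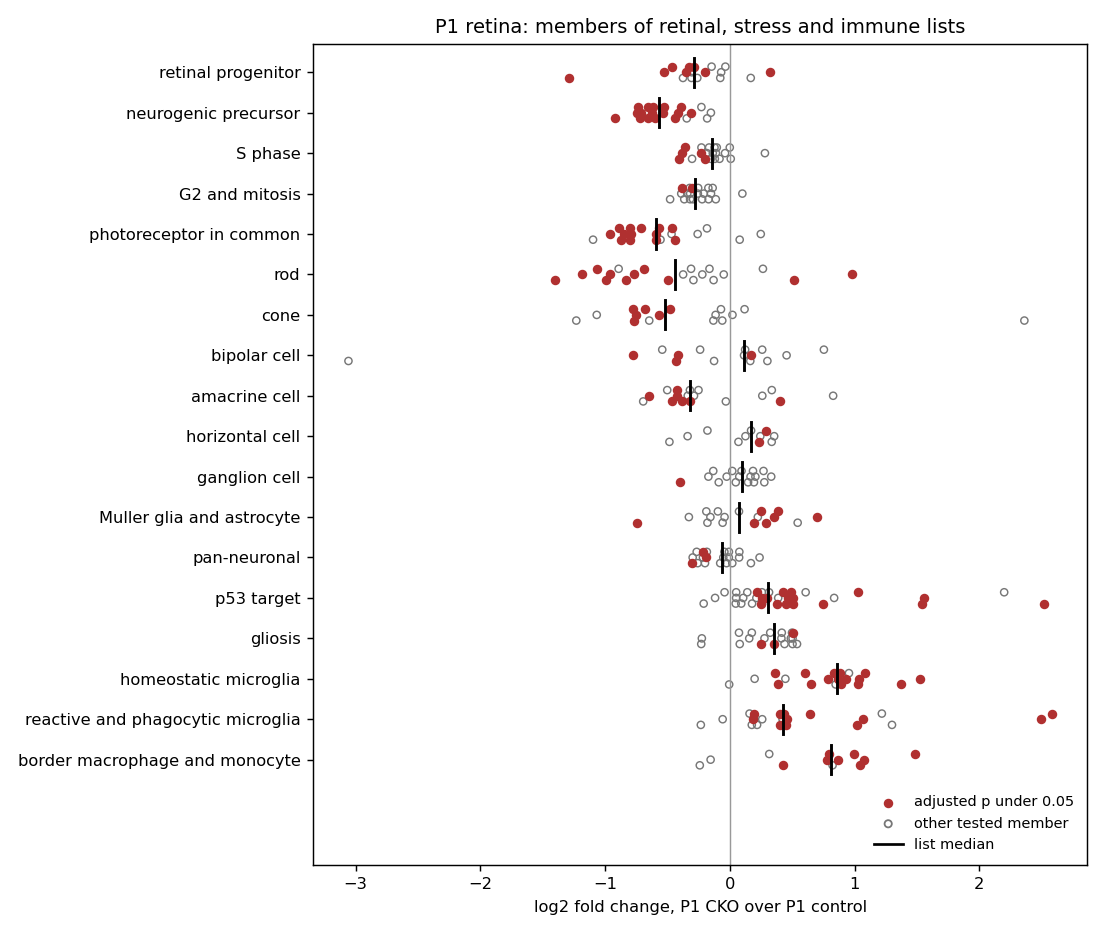
Log2 fold change of CKO over control at P1 for the tested members of 18 lists. Filled points passed an adjusted p of 0.05, open points did not, and the bar is the list median. The medians of the neurogenic (-0.57), shared photoreceptor (-0.59), rod (-0.44) and cone (-0.52) lists lie left of 0 and those of the homeostatic microglia (0.86) and border macrophage (0.81) lists right of it. Of the open points far from 0, Bhlhe23 in the bipolar list is near 0 CPM, while Opn1sw in the cone list is not.

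Among lists of inner retinal neurons, the share of genes called was 41.2% for amacrine, 26.7% for bipolar, 18.2% for horizontal and 5.88% for ganglion cells, against 12.7% of all genes. Amacrine genes fell in 6 of 17 cases and rose in 1 (median -0.32). Tfap2b, an AP-2 factor of amacrine and horizontal cells, was at 239 and 236 CPM in the controls and 178 and 185 CPM in the CKO libraries (-0.39 ± 0.05, adjusted p = 0.000103). Meis2, a homeobox factor of GABAergic amacrine cells, was at 127 and 127 against 94.5 and 94.7 CPM (-0.43 ± 0.07, adjusted p = 0.000276). Gad2, which makes GABA, was at 50.6 and 45.6 against 30.5 and 31 CPM (-0.65 ± 0.11, adjusted p = 0.000662). Tcf4 and Tfap2a also fell, by 0.32 and 0.42, and both calls were lost with pan-neuronal scaling. Foxp2 rose by 0.40, a call lost without any 1 of the P1 libraries.

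In the ganglion cell list 1 of 17 fell and none rose (median 0.09, and 0.19 with pan-neuronal scaling). Without the P30 libraries 7 rose and 2 fell, and with the 4 P1 libraries alone 8 rose and 2 fell; without control replicate 1 the median was 0.048. The one that fell in the fit of all samples was Sox11, also a gene of newborn neurons in general (-0.40 ± 0.06, adjusted p = 0.000104), a call lost with pan-neuronal scaling. Pou4f1, which marks ganglion cells, was at 59.4 and 63.9 against 59.4 and 61.8 CPM, Rbpms at 65.3 and 66.3 against 65.5 and 67.8 CPM and Stmn2 at 134 and 138 against 143 and 144 CPM; none was called. A missed threshold does not show that they were equal. Horizontal cell genes gave 2 rises in 11, Slc4a3 (0.29 ± 0.05, adjusted p = 0.000873) and Tpm3, which muscle also expresses and whose call was lost in 4 alternatives. Bipolar genes gave 1 rise and 3 falls in 15; Prdm8 fell from 16.4 ± 1.38 to 9.54 ± 0.103 CPM (-0.78 ± 0.12, adjusted p = 0.000284), while Vsx1, Grm6 and Scgn were under 1 CPM in all libraries at this age. Of 20 pan-neuronal genes 3 fell, led by Map1b (-0.31 ± 0.05, adjusted p = 0.000278), and none rose; 1 fell when a P1 library was left out.

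Müller glia and astrocyte genes rose in 6 of 17 cases and fell in 1 (median 0.07). Over all genes 6.11% rose and 6.57% fell. Vim, the intermediate filament vimentin of glia, progenitors and mesenchyme, was at 984 and 1002 CPM in the controls and 1269 and 1269 CPM in the CKO libraries (0.35 ± 0.05, adjusted p = 6.55e-05). Pdgfra, the receptor of retinal astrocytes and of mesenchyme, was at 135 and 132 against 175 and 175 CPM (0.39 ± 0.05, adjusted p = 2.98e-05). Crym fell (-0.74 ± 0.08, adjusted p = 9.93e-06). Gfap, the filament of astrocytes and of stressed Müller glia, was at 75.5 and 74 against 78 and 79.2 CPM and not called (0.07 ± 0.08, adjusted p = 0.623). In the gliosis list Vim, Stat3 and Osmr rose, 3 of 19, and none fell (median 0.35). The call of Stat3 was lost without control replicate 1 or CKO replicate 1, and that of Osmr without any 1 P1 library. With pan-neuronal scaling 4 gliosis genes rose. Without the P30 libraries, or with the 4 P1 libraries alone, 11 of 19 rose and 1 fell. Connective tissue genes rose in the same libraries, and their part in the values of Vim and Pdgfra was not tested.

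Targets of p53 rose as a group. Of 34 tested targets 16 rose and none fell, against 6.11% of all genes rising (median 0.31); 14 rose with pan-neuronal scaling and 11 or 12 when a P1 library was left out. Pmaip1, which encodes NOXA, a BH3-only protein that promotes mitochondrial apoptosis, was at 1.7 and 1.44 CPM in the controls and 9.69 and 8.41 CPM in the CKO libraries. The gap between groups was many times that between replicates (2.52 ± 0.26, adjusted p = 3.35e-06). Eda2r, a death-domain receptor of the tumour necrosis factor family, was at 4.92 and 5.93 against 15.6 and 16.3 CPM (1.56 ± 0.20, adjusted p = 3.23e-05). Cdkn1a, the p21 inhibitor of cyclin-dependent kinases, rose from 53.5 ± 3.13 to 109 ± 3.25 CPM (1.03 ± 0.14, adjusted p = 0.000848).

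Among the other called targets, Trp53inp1 was at 69.3 and 69.3 against 95.4 and 94.3 CPM (0.45 ± 0.06, adjusted p = 6.06e-05), Dglucy at 1.7 and 2.17 against 5.9 and 5.35 CPM (1.54 ± 0.21, adjusted p = 9.02e-05) and Aen, an apoptosis nuclease, at 29.8 and 30.4 against 43.2 and 42.4 CPM (0.51 ± 0.08, adjusted p = 0.000403). Plk2 was at 34.2 and 36.5 against 47.7 and 51.5 CPM (0.49 ± 0.08, adjusted p = 0.000433). Zmat3, Phlda3 and Ptp4a3 rose by 0.38, 0.43 and 0.30. Bax rose from 44.6 ± 3.42 to 53.2 ± 0.00501 CPM (0.26 ± 0.07, adjusted p = 0.0171), a call lost without control replicate 2 or either CKO library. Ccng1 rose (0.75 ± 0.19, adjusted p = 0.0362), a call lost without any 1 P1 library. Mdm2, the ubiquitin ligase of p53 and itself a target, was at 75 and 72.3 against 76.1 and 76.4 CPM (0.05 ± 0.06, adjusted p = 0.682), and Perp at 84.8 and 90.4 against 90.3 and 90.7 CPM and Apaf1 at 53.6 and 57.7 against 60.7 and 59.1 CPM were not called either. Cdkn1a and Eda2r are also expressed in muscle, and the part of muscle in their rise was not tested.

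In other stress lists the share called, beside 12.7% of all genes, was 20% for the integrated stress response, 14.3% for heat shock and 7.14% for the unfolded protein response. In the apoptosis machinery list 0 of 18 genes were called by edgeR's quasi-likelihood test or by DESeq2, with 2 at an unadjusted p under 0.05; the log2 difference was 0.06 ± 0.07 for Mcl1, an inhibitor of apoptosis. The interferon list gave 0 of 18 with both tools and 2 at an unadjusted p under 0.05. Without the P30 libraries 2 apoptosis genes rose and 1 fell, and 3 interferon genes rose and 1 fell. Of 20 integrated stress response genes 1 rose and 3 fell, with log2 differences of -0.02 ± 0.07 for Atf4 and -0.03 ± 0.11 for Ddit3, neither called. In the unfolded protein list Xbp1 alone rose (0.31 ± 0.07, adjusted p = 0.00881), and its call was lost in 4 alternatives. Hspb1, a small heat shock protein of muscle, lens and glia, rose (0.52 ± 0.05, adjusted p = 3e-06), whereas Hspa8 (0.14 ± 0.12) and Hsp90aa1 (-0.08 ± 0.05) were not called.

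Microglia genes rose: 15 of 20 homeostatic markers were called higher and none lower, with a median of 0.86; pan-neuronal scaling left 15 and each left-out library 11 to 13. Over all tested genes 6.11% rose. C1qc, C1qa and C1qb encode the chains of complement C1q. C1qc was at 17.3 and 18.8 CPM in the controls and 36.6 and 36.7 CPM in the CKO libraries (1.03 ± 0.07, adjusted p = 3.71e-08). C1qa was at 15.8 and 16.3 against 29.2 and 29.3 CPM (0.87 ± 0.08, adjusted p = 6.59e-07) and C1qb at 18.8 and 19.1 against 35.9 and 36.2 CPM (0.93 ± 0.09, adjusted p = 1.7e-06). The 3 chains rose by like amounts.

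Csf1r, the receptor on which microglia depend, was at 23.2 and 22.8 against 42.6 and 42.6 CPM (0.89 ± 0.09, adjusted p = 1.82e-06). Laptm5, a lysosomal protein of leukocytes, was at 16.2 and 17.1 against 30.7 and 30.9 CPM (0.89 ± 0.10, adjusted p = 1.06e-05). Cx3cr1, the fractalkine receptor, was at 5.87 and 5.78 against 13.6 and 10.2 CPM (1.04 ± 0.14, adjusted p = 7.98e-05). Trem2, Fcrls, Tyrobp and Olfml3 rose in every alternative. P2ry12 (0.79 ± 0.25, adjusted p = 0.0411) and Tmem119 (0.38 ± 0.10, adjusted p = 0.0199), which mark settled microglia, rose in this fit, but both calls were lost without any 1 of the P1 libraries. Sall1, also expressed outside microglia, was at 13 and 12.6 against 15.2 and 14.2 CPM and not called.

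Border macrophages, which sit around vessels and in the meninges and choroid, had a like rise: 8 of 12, median 0.81, with 5 called when any P1 library was left out. Their summed level was 135 and 131 CPM in the controls and 203 and 204 CPM in the CKO libraries. The share of all tested genes that rose was 6.11%. Mrc1, the mannose receptor CD206, was at 26.4 and 24.1 against 43.7 and 44.2 CPM (0.80 ± 0.08, adjusted p = 1.54e-06). F13a1 was at 27.4 and 28.2 against 47.5 and 47.7 CPM (0.78 ± 0.08, adjusted p = 2.21e-06) and Lyve1 at 13.2 and 12.2 against 23.6 and 26.9 CPM (0.99 ± 0.12, adjusted p = 2e-05). Cd163, a haemoglobin scavenger receptor, was at 11 and 10.6 against 19.9 and 19.5 CPM (0.86 ± 0.11, adjusted p = 4.86e-05). Genes shared by both classes of macrophage cannot be assigned to one of them in whole tissue.

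Genes of reactive and phagocytic microglia rose in 12 of 21 cases and none fell (median 0.42), with 7 or 8 rises when a P1 library was left out. Over all tested genes 6.11% rose. Spp1, osteopontin, was at 17.5 and 18.5 CPM in the controls and 98.5 and 104 CPM in the CKO libraries (2.49 ± 0.10, adjusted p = 1.12e-11). It is also a main product of osteoclasts and osteoblasts, whose markers rose here too. The part of bone in the rise of Spp1 was not tested. Lyz2, lysozyme of macrophages, was at 11.3 and 11.5 against 23.4 and 24.3 CPM (1.07 ± 0.11, adjusted p = 3.69e-06). The lysosomal proteases Ctsb and Ctsd rose from 251 ± 1.08 to 333 ± 3.46 CPM and from 221 ± 4.42 to 292 ± 3.93 CPM. Gas6 and Axl, a ligand and receptor of the uptake of dead cells, rose by 0.45 and 0.43. Fabp5, at 215 and 220.4 against 215 and 204 CPM, and Cd63 and Cd9 were not called. Itgax and Cst7, which define the disease-associated state, were under 1 CPM in every library. Neutrophil genes gave 1 call of 9, S100a8, which fell in a call lost without control replicate 2 or CKO replicate 2, and the mast cell genes Cpa3 and Cma1 rose with calls lost without any 1 P1 library.

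Among the clients of the chaperone complex that UXT belongs to, 1 of 17 tested genes rose and 5 fell. Over all genes 6.11% rose and 6.57% fell. Polr2a, the largest subunit of RNA polymerase II, was at 297 and 293 CPM in the controls and 412 and 432 CPM in the CKO libraries (0.52 ± 0.05, adjusted p = 5.7e-07). The other 6 subunits in the list were not called, for example Polr2b at 106 and 102 against 108 and 106 CPM. Of the large kinases, Atm was at 41.2 and 43.2 against 28.1 and 28 CPM (-0.59 ± 0.07, adjusted p = 2.52e-05). Atr, Prkdc, Smg1 and Trrap fell by 0.28, 0.28, 0.25 and 0.19, and each of these 4 calls was lost with pan-neuronal scaling and without any 1 of the P1 libraries. Mtor, of the same family, was at 98 and 101 against 96.5 and 99.7 CPM and not called.

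Of 28 tested genes of the spliceosome and of splicing regulation 11 fell and 1 rose (median -0.08; 3 fell with pan-neuronal scaling and 6 or 7 when a P1 library was left out). Over all genes 6.57% fell and 6.11% rose. The falls in this list that held in every alternative were those of 3 regulators of neural splicing and RNA. Ptbp2, the neural polypyrimidine tract protein, was at 236 and 232 against 169 and 171 CPM (-0.46 ± 0.06, adjusted p = 2.3e-05). Srrm4, the neural microexon factor, was at 135 and 133 against 90.4 and 86.4 CPM (-0.60 ± 0.08, adjusted p = 6.7e-05). Msi1, Musashi, an RNA-binding protein of progenitors and photoreceptors, was at 498 and 516 against 360.1 and 360.2 CPM (-0.49 ± 0.08, adjusted p = 0.00128). Srsf1 (-0.26 ± 0.05, adjusted p = 0.000967) and Srsf7 (-0.25 ± 0.05, adjusted p = 0.00265), SR proteins expressed in all cells, fell too, with calls that pan-neuronal scaling ended. Core spliceosome genes such as Prpf8 (-0.01 ± 0.04), Snrnp200 (0.01 ± 0.05) and Sf3b1 (-0.05 ± 0.04) were not called.

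Of 18 hedgehog, Wnt and FGF genes 1 rose, Fzd7 (0.36 ± 0.07, adjusted p = 0.00148), and 2 fell (16.7% called, against 12.7% of all genes), Etv5 (-0.38 ± 0.05, adjusted p = 0.000138) and Fgf9; both calls were lost with pan-neuronal scaling and that of Fgf9 without any 1 P1 library. Gli1, the hedgehog target, was at 81.6 and 86.6 against 81.2 and 83.1 CPM (-0.03 ± 0.11, adjusted p = 0.899). Glycolysis genes gave 1 rise and 1 fall of 15, Gpi1 and Pfkp, in calls lost in 7 and 4 alternatives, a share of 13.3%.

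Apart from the sex-linked genes, the largest changes named by the rule were mostly in markers of bone and hair follicle. Over all genes 6.11% rose and 6.57% fell. Of 13 tested bone genes 10 rose, with a median of 1.34, and 6 to 8 rose when a P1 library was left out. Mmp13, the collagenase of hypertrophic cartilage and osteoblasts, had 6 reads in the controls together and 1020 in the CKO libraries, a ratio of 192 after library size (exact binomial 95% interval 88 to 525, which covers counting error in the summed reads only and not the spread between samples). Ibsp, bone sialoprotein, was at 0.851 and 0.619 against 20.2 and 15.9 CPM (4.6 ± 0.25, adjusted p = 3.42e-09), and Dmp1, of osteocytes, at 0.473 and 0.309 against 5.63 and 5.01 CPM (3.73 ± 0.36, adjusted p = 2.1e-06). The collagen genes of all connective tissue differed less: Col1a1 had a log2 difference of 0.15 ± 0.09, not called, and Col1a2 one of 0.23 ± 0.07, a call lost without any 1 P1 library. Of 10 osteoclast genes 5 rose, 3 of them when a P1 library was left out, and Ckb, also a brain creatine kinase, fell. Mmp9 was at 1.04 and 1.8 against 23.1 and 22.4 CPM (4 ± 0.23, adjusted p = 9.07e-10) and Acp5, tartrate-resistant phosphatase, at 0.851 and 1.19 against 10.8 and 12.6 CPM (3.52 ± 0.21, adjusted p = 2.18e-09).

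Hair follicle genes fell. Of 17 tested members 11 fell and none rose (median -1.45), against 6.57% of all genes falling. Krt71, a keratin of the inner root sheath, had 865 reads in the controls and 7 in the CKO libraries, a ratio of 109 after library size (95% interval 52.8 to 273, for counting error only); keratins have close relatives between which reads can be split. Tchh, trichohyalin, was at 29.9 and 29.2 against 6.87 and 7.31 CPM (-2.06 ± 0.09, adjusted p = 1.03e-11). The keratins of the basal epidermis and ocular surface, Krt5 (710.2 and 728 against 684 and 678 CPM) and Krt14 (323 and 341 against 289 and 282 CPM), were not called. Embryonic and neonatal myosins rose, Myh3 from 385 ± 4.91 to 858 ± 0.947 CPM and Myh8 from 586 ± 9.95 to 1157 ± 11.5 CPM, as did globins, with Hba-a2 at 23.6 and 31.7 against 111 and 117 CPM (2.05 ± 0.31, adjusted p = 0.00322). The globin genes have close copies between which reads can be split. Of the 5 red cell genes called, only Hba-a2 kept its call in every alternative, and 1 to 3 were called when a P1 library was left out.

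**Figure D3:**
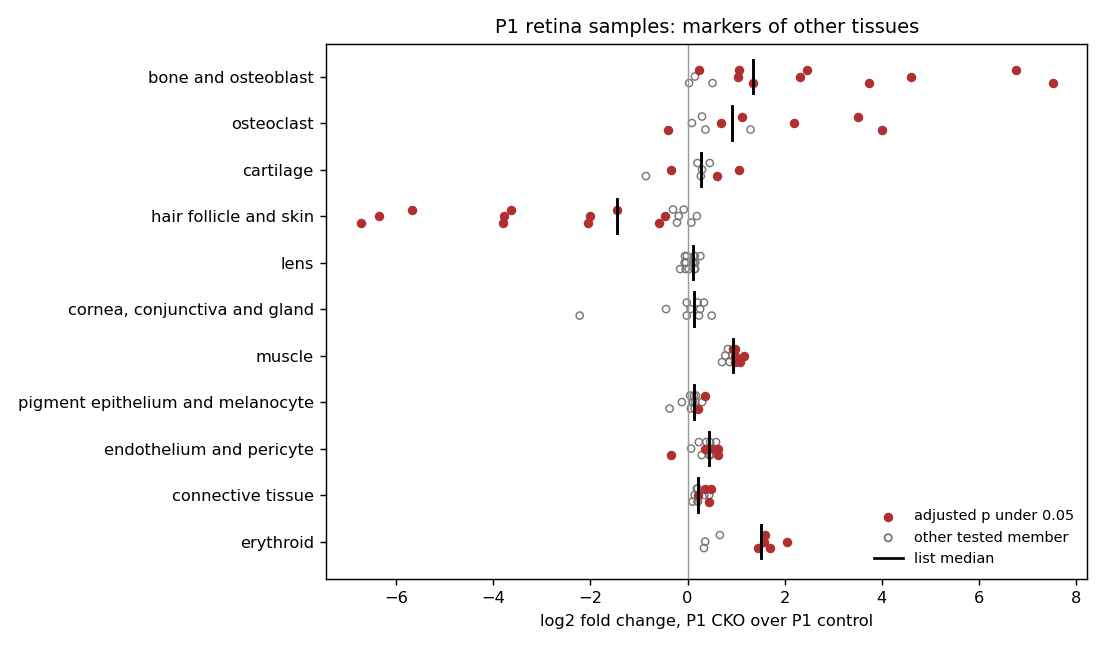
Log2 fold change at P1 for markers of 11 tissues outside the neural retina, with called genes filled, other tested genes open and medians as bars. Bone, osteoclast, muscle and red cell medians lie at 1.34, 0.91, 0.94 and 1.51, the hair follicle and skin median at -1.45, and no lens gene was called in this fit.

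Among genes outside the lists that changed at least 2-fold, several are retinal. By the naming rule, Crb1, an apical polarity protein of progenitors and Müller glia, was at 68.8 and 68.2 CPM in the controls and 22.8 and 24 CPM in the CKO libraries (-1.55 ± 0.15, adjusted p = 6.02e-05). Lrit2, a leucine-rich repeat membrane protein of the retina, was at 6.67 and 7.22 against 2.16 and 2.76 CPM (-1.5 ± 0.17, adjusted p = 9.03e-06). The rule also named Abcd4, a lysosomal transporter of vitamin B12, at 23 and 23 against 151 and 155 CPM (2.74 ± 0.10, adjusted p = 5.77e-10), and Zfp949, at 19.3 and 18.8 against 72.6 and 71.6 CPM (1.92 ± 0.23, adjusted p = 0.000823). All 4 genes kept their calls in every alternative. Xlr3b, an X-linked gene with close copies, fell (-1.52 ± 0.20, adjusted p = 6.48e-05), and Capn11 rose (5.57 ± 1.15, adjusted p = 0.0146), with a call lost without any 1 of the P1 libraries.

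Further 2-fold changes were picked after their values were seen. Ttyh1, a membrane protein of progenitors and glia, was at 105 and 109 against 44.5 and 40.4 CPM (-1.33 ± 0.08, adjusted p = 1.21e-08). Grik3, a kainate receptor subunit, was at 53.8 and 49.7 against 24.8 and 22.4 CPM (-1.13 ± 0.12, adjusted p = 4.14e-06), and Robo3, an axon guidance receptor, at 33.3 and 30.9 against 16 and 14.9 CPM (-1.05 ± 0.11, adjusted p = 2.55e-06). Ndufa4l2, a mitochondrial protein induced by hypoxia, was at 46.3 and 47.6 against 22 and 24.3 CPM (-1.02 ± 0.09, adjusted p = 6.4e-07). Among rises, Gjc3 and Plxnb3, genes of myelinating glia, went from 2.13 ± 0.2 to 6.62 ± 0.33 CPM and from 1.51 ± 0.675 to 5.14 ± 0.225 CPM, and Dio3, which inactivates thyroid hormone, from 8.55 ± 0.21 to 24.9 ± 2.14 CPM. Fam107a rose by 1.47. All 8 of these calls held in every alternative.

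The P1 differences were compared with those at P7, when photoreceptor birth is nearly over. The P7 samples are other libraries with their own controls, whose Xist and Y-linked levels run with the label in the same direction. The share of all genes called at P7 is not given here, so list counts at P7 have no background beside them. At P7 the median log2 fold change over all genes was 0.009. The difference between the 2 ages (P7 minus P1) was significant for 1514 genes (7.17%), higher at P7 for 753 (3.57%) and lower for 761 (3.6%). The number was 533 with pan-neuronal scaling, 4546 without the P30 libraries and 794 to 877 when a P1 library was left out. Of the 20 neurogenic precursor genes 14 differed, all toward higher values at P7, where 8 were called higher and 0 lower (median 0.31). Neurod4 at P7 was at 162 and 161 CPM in the controls and 248 and 259.6 CPM in the CKO libraries. It was thus lower in the CKO at P1 and higher at P7, a difference of 1.57 ± 0.08, adjusted p = 6.27e-10. Hes5 at P7 was at 7.31 and 8.62 CPM in the controls and 12.9 and 13.3 CPM in the CKO libraries (2 ± 0.16, adjusted p = 3.8e-07), and Notch1 at 122 and 112 CPM in the controls and 182 and 176 CPM in the CKO libraries (1.14 ± 0.07, adjusted p = 5.71e-09). These 3 genes changed order between the ages in every library.

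The gap in the photoreceptor regulators Crx and Nrl was smaller at P7 than at P1. Crx at P7 was at 579 and 582 CPM in the controls and 563 and 556 CPM in the CKO libraries, and the difference from P1 was 0.74 ± 0.06, adjusted p = 3.28e-07. Nrl at P7 was at 552 and 557 CPM in the controls and 555 and 543 CPM in the CKO libraries (0.95 ± 0.09, adjusted p = 2.41e-06). Sag was lower in the CKO at both ages, at 609.9 and 596 CPM in the controls and 371 and 369 CPM in the CKO libraries at P7 (0.70 ± 0.11, adjusted p = 0.000439). In the shared photoreceptor list 13 of 20 genes fell at P7. By the test of the difference 7 of the 20 had a smaller fall at P7 than at P1, or none, and 1, Aipl1, a larger one. In the rod list 7 differed upward and 3 downward, and the median was -0.44 at P1 and -0.47 at P7. In the cone list 10 of 16 fell at P7 and 6 at P1, without an all-gene share at P7 to set beside these counts. The median was -0.52 at P1 and -0.80 at P7. By the test of the difference 4 cone genes were lower at P7 and 2 higher.

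Part of the microglia genes and p53 targets were raised more at P1 than at P7. Over all genes the difference between ages was lower at P7 for 3.6% and higher for 3.57%. No all-gene share of P7 calls is given beside the P7 counts. In the homeostatic microglia list 2 of 20 rose at P7, and the difference was significant for 10, all lower at P7. C1qc at P7 was at 23.1 and 25.5 CPM in the controls and 27.3 and 27 CPM in the CKO libraries (-0.86 ± 0.10, adjusted p = 3.33e-05). Of 12 border macrophage genes 6 differed, also lower at P7. Of 34 p53 targets none rose at P7 and 8 differed; Pmaip1 at P7 was at 1.71 and 1.42 CPM in the controls and 2.49 and 1.42 CPM in the CKO libraries (-2.19 ± 0.41, adjusted p = 0.00237). Uxt differed too (1.04 ± 0.26, adjusted p = 0.0181), with 5.76 and 6.41 CPM in the controls and 7.66 and 6.62 CPM in the CKO libraries at P7. Outside the retina, the difference was significant for 11 hair follicle genes, all higher at P7, where 11 rose; for 5 bone genes and 5 red cell genes, all lower at P7; and for 2 of 11 muscle genes.

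**Figure D4:**
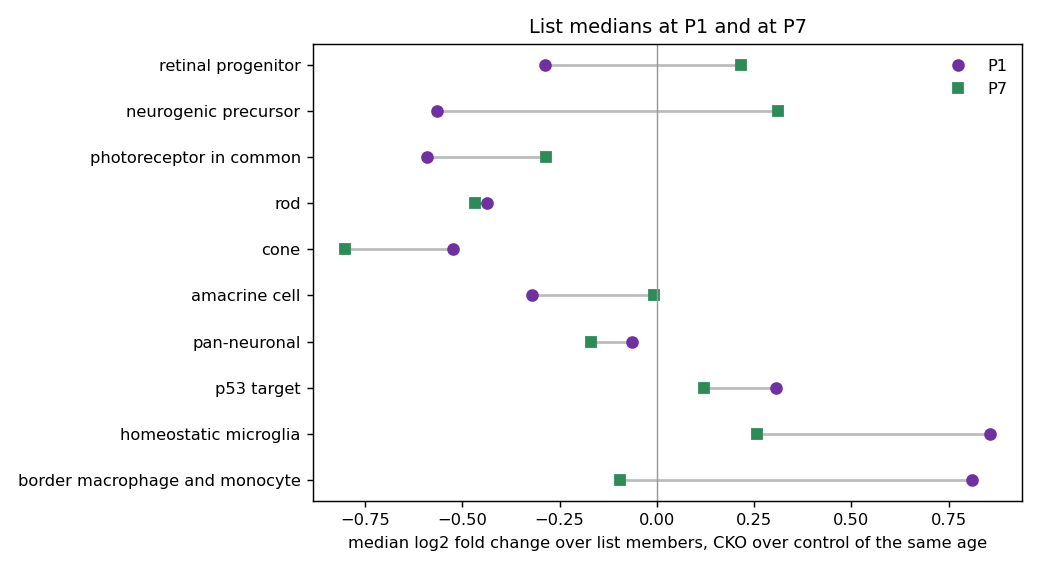
Median log2 fold change of CKO over the control of the same age for 10 lists, at P1 (circles) and P7 (squares). The neurogenic median moves from -0.57 to 0.31 and the homeostatic microglia median from 0.86 to 0.26, while the rod median is -0.44 and -0.47.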

How the data were processed

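Whole-retina polyA RNA-seq of 16 mouse samples was deposited as raw read counts per gene, 1 file per sample. Per the submitters' processing notes the authors used HISAT2, HTSeq and mm10; versions, annotation and strand setting are not given in the sources used here. The deposited counts were taken as they are. Of 54532 identifiers, 54495 matched a symbol; for 2 symbols with 2 identifiers (Ddit3, Aldoa) the longer gene was kept. The comparison is P1 CKO against P1 control (n = 2 each). edgeR 4.0.16 (R 4.3.3) fitted all 8 groups together, with TMM scaling, filterByExpr, robust quasi-likelihood tests and Benjamini-Hochberg adjustment over 21115 genes, so that all ages share the estimate of the spread (8 residual degrees of freedom, biological coefficient of variation 0.0635). The difference between ages is a contrast of the same fit. The code was tested on simulated data. P1 totals of 16202580 to 19555104 counts put the floor of 3 counts at 0.142 to 0.173 CPM.

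The 46 gene lists (735 genes, 733 matched, 720 tested) and the genes named were chosen with earlier results of these data known. Any list member could be named. In lists described at length, up to 6 called genes with the smallest p and up to 3 uncalled genes with the highest CPM are given by library. The 12 largest rises and falls (at least 2-fold, 5 CPM or more in the higher group, groups apart, no model-number names) and the 4 largest differences between ages in each direction were also eligible. A total of 14 alternatives were run, among them RLE factors, library size alone, scaling on pan-neuronal genes, other filters, DESeq2 1.42.0, fewer samples in the fit, a replicate block and each P1 library left out. Promoter windows are from a RefSeq table (GRCm38.p6). No sample was left out of the fit and no value imputed. Some results are not reported here.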

Additional observations from a re-analysis of the deposited data

Results flagged for a closer look

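The difference between CKO and control was itself different at P1 and P7 for 1514 genes by the test of the contrast between ages (edgeR's quasi-likelihood test, Benjamini-Hochberg adjustment). The 8 genes named by the rule, with the largest differences, are mostly of tissues outside the retina. On the log2 scale, P7 minus P1, Scgb2b2 differed by -9.35, Mmp13 by -7.78, Capn11 by -7.52 and Obp1a by -5.76. Krtap3-1 differed by 6.85, Krt71 by 7.12, Krtap11-1 by 7.26 and Krt81 by 8.49. Where a group has few or no reads these fitted values depend on the prior count and are no bound. Scgb2b2, a secretoglobin of gland tissue, was at 0 and 0 against 0.433 and 0.345 CPM at P1 (controls first). At P7 it was at 783 and 788 CPM in the controls and 67.2 and 74.2 CPM in the CKO libraries. Obp1a, an odorant-binding protein of glands, was at 0 and 0.309 against 0.866 and 0.403 CPM at P1 and at 1409 and 1455 CPM in the controls and 106 and 115 CPM in the CKO libraries at P7. Mmp13 was at 0.0946 and 0.206 against 27.4 and 29.5 CPM at P1 and at 0.311 and 0.245 CPM in the controls and 0.149 and 0.315 CPM in the CKO libraries at P7. Capn11, a calpain, was at 0.284 and 0.206 against 10.7 and 13.3 CPM at P1 and at 7.1 and 6.76 CPM in the controls and 1.69 and 1.89 CPM in the CKO libraries at P7. The hair keratin Krt71 was at 21.2 and 21.5 against 0.325 and 0.0576 CPM at P1 and at 236 and 236 CPM in the controls and 314 and 307 CPM in the CKO libraries at P7. Krt81, Krtap3-1 and Krtap11-1, of the hair shaft, had 0 reads in both P1 CKO libraries and 0.413 to 1.47 CPM in the P1 controls. The part of tissue taken with the retina in these values was not tested.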

How the results depend on the processing

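With pan-neuronal scaling 1228 genes were called at P1 (342 lower) and 533 differed between the ages. With the 4 P1 libraries alone 6098 were called (3154 higher, 2944 lower), and 427 members of the gene lists. Without the P30 libraries 5877 were called (2714 higher, 3163 lower), 4546 differed between the ages and 418 list members were called. Leaving out 1 P1 library at a time gave 1159 to 1276 calls (525 to 617 higher, 592 to 659 lower), 794 to 877 differences between ages and 149 to 154 list members. Then 1 group has a single library, which is assumed to vary like the other groups. The fall of Uxt ranged from -1.05 to -0.63, and was -0.69 without control replicate 2 and -0.63 without CKO replicate 2, with adjusted p of 0.0878 and 0.117. RLE factors, library size alone, no filter, a filter of 5 CPM in 2 libraries, DESeq2 and leaving out genes on X and Y kept the P1 count within 1.5 times of 2677 (2121 to 3174). Among the list members and the genes named for the largest P1 changes, no called gene changed direction in any alternative that tested it. Across genes, the difference between the 2 control replicates had a correlation of -0.02 with that between the 2 CKO replicates. With 2 replicates in each group this cannot show whether equal numbers pair the samples. The replicate block gave 2368 calls, 1226 differences between ages, 225 list members and an adjusted p of 0.0232 for Uxt (edgeR's quasi-likelihood test). Of the 46 list medians, 38 moved by more than their spread with pan-neuronal scaling. With the 4 P1 libraries alone 8 moved, and 13 to 19 moved when 1 P1 library was left out. The spread is the SD of the list median over all pairs of a CKO and a control library. These pairs share libraries and are not independent. Counted on the given strand alone, the CRX motif was in 3.03% of all promoters, 12.5% of the rod list, 5.26% of the shared photoreceptor list and 0 of the 18 cone promoters. The cause of these shifts was not tested. Genes under about 0.2 CPM are below what 3 counts resolve.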
